A study of Mus musculus with 221 samples.

Results

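Among Notch pathway genes, 8 were followed through single cells that turn from endothelium into blood in the mouse embryo: the receptors Notch1 and Notch4, the ligands Dll4, Jag1 and Jag2, and the target genes Hey1, Hey2 and Hes1. They were chosen by gene symbol and are 8 of the 78317 genes annotated in the transcript table, with 2 to 12 annotated transcripts each. Cells came from untreated embryos of Runx1b-RFP and Gfi1-GFP reporter males crossed with CD-1 females, and each cell's Smart-seq2 cDNA was sequenced with long reads on a nanopore flow cell. Hemogenic endothelium (HE) of the aorta-gonad-mesonephros (AGM) region, where the dorsal aorta lies, was sorted at embryonic days E9.5 and E10.5 as RUNX1+ CDH5+ cells that lacked KIT, CD41 and CD45. Yolk sac (YS) HE was sorted at E9, E9.5 and E10.5 as RUNX1+ KIT+ CD31+ cells that lacked CD41 and CD45. GFI1 was allowed to be on or off in both sorts, so presence of KIT was a difference in the gate between AGM and YS cells. The labels name 9 clusters: HE-AGM early, HE-AGM late and HE-Hb from the AGM region, HE-YSA early, HE-YSA late, HE-YSP early and HE-YSP late from the YS, together with p1 and p2, which are progenitor clusters of the YS. HE-AGM, HE-YSA and HE-YSP stand below for the early and late cells of each population together.

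Notch receptors span the membrane and are cut when a ligand on a neighbouring cell binds them. The freed intracellular part enters the nucleus, joins the DNA-binding protein RBPJ and switches on targets, among them the HES and HEY repressors. In the embryo the pathway is known for its part in arterial identity and in the emergence of blood stem cells from the aorta, whereas the first yolk sac progenitors are known to depend on it less.

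Of 221 labelled cells, 208 had at least 17595 estimated counts and were used, with 17 to 29 cells in a cluster and totals of 18131 to 125339 counts. Median totals were 59311 for HE-AGM cells, 34483.5 for HE-YSA cells and 33297 for HE-YSP cells. Each library is 1 cell and no embryo is named, so each cluster is 1 sample, no test between clusters was possible, and values are given as CPM, the count divided by the total of the cell or cluster and scaled to 1000000, with exact 95% Poisson intervals that cover counting error only. The amplified reads carry no molecular identifiers, so the intervals are narrower than the true error. AGM and YS cells also came from different cDNA projects except for 1 HE-YSA early cell, and tissue and project cannot be told apart. A further 2 YS cells have AGM in their library name, and leaving out these 3 cells reversed no ratio of the 8 genes. The clusters were drawn by the authors from short-read data of the same cells, in which these genes may have taken part, so differences between clusters are descriptions. Among marker lists, the arterial genes (Gja5, Gja4, Vwf and others) summed to 2058 CPM in HE-AGM early, 2014 in HE-YSA early and 268 in HE-YSP early, and the venous and yolk sac list (Lyve1, Stab2 and others) to 1.55, 64.2 and 1964 CPM. The hemogenic endothelium list (Runx1, Gfi1 and others) summed to 396, 393 and 92.8 CPM in the same clusters. It was at 588 CPM in HE-AGM late, 457 in HE-YSA late and 264 in HE-YSP late, with 225 in p1 and 235 in p2. Cdh5, the endothelial cadherin of the AGM gate, was held by 29 of 29 HE-AGM early cells, whereas Ptprc, the gene of CD45, stayed at or below 18.3 CPM in each cluster. The early blood list of 5 genes that holds Ptprc summed to more. It ran from 53.5 CPM in HE-YSA early through 239 in HE-AGM early and 466 in HE-AGM late to 573 in HE-Hb, with 312 in p1 and 328 in p2.

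Early HE of the aorta held the most members of the pathway. A HE-AGM early cell held between 1 and 7 of the 8 genes, with a median of 4, where holding a gene means at least 1 count within 0.01. The median was 1.5 genes in HE-AGM late, 2 in HE-YSA early and 0 in the other clusters. All 29 HE-AGM early cells held at least 1 of the genes, against 17 of 23 HE-YSA early cells. With each cell thinned to 16000 counts the median was 3 genes in HE-AGM early, 1 in HE-AGM late and 1 in HE-YSA early, so the order of HE-AGM early and HE-YSA early was kept at equal depth.

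**Figure D1:**
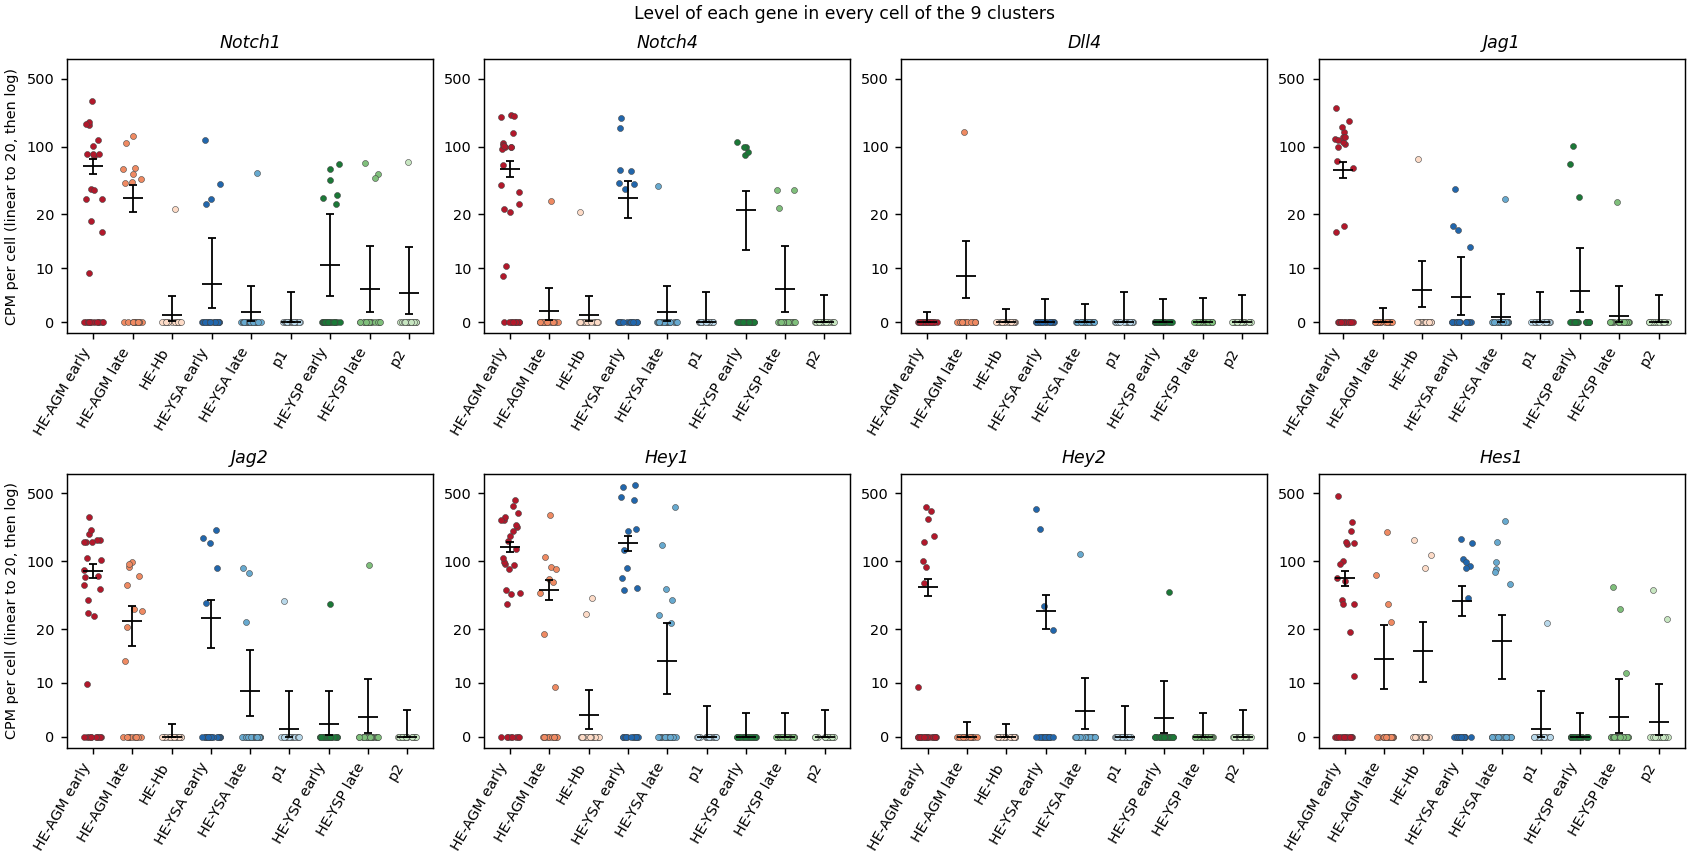
Each point is 1 cell, its height the CPM of the gene named above the panel (linear up to 20, logarithmic above), in the 9 clusters along the x axis. Black lines are the CPM of the cluster's summed counts with the 95% Poisson interval; Hey1 reached 613 CPM in a HE-YSA early cell and stood at 0 in all HE-YSP and p2 cells.

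Notch1, the receptor required for blood stem cells of the aorta, was highest in HE-AGM early. Its level there was 62.9 CPM (95% interval 52.3 to 75.1), and single cells ran from 0 through a median of 18.8 to 297 CPM. HE-AGM late followed with 29.5 CPM (21.2 to 40), a median cell of 0 and a highest cell of 130 CPM. These intervals did not overlap each other, nor those of any other cluster. HE-YSP early had 10.6 CPM, HE-YSA early 7.14, HE-YSP late 6.09, p2 5.46, HE-YSA late 1.88, HE-Hb 1.32 and p1 0 (upper limit 4.57 CPM for a count of 0), and neighbours in this order overlapped. Of the 6 HE-YSA early counts, 3 came from the 1 cell of the AGM cDNA project, without which that cluster had 3.68 CPM.

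Notch4, the receptor known from endothelium, was a gene of the early clusters. It stood at 59.3 CPM (49.0 to 71.2) in HE-AGM early, with cells from 0 through 25.8 to 211 CPM and 19 of 29 cells holding it. HE-YSA early had 29.7 CPM (19.2 to 43.9) in 7 of 23 cells and HE-YSP early 22.3 CPM (13.4 to 34.9) in 5 of 25 cells, with overlapping intervals and a median cell of 0 in both. The highest HE-YSA early cell, at 198 CPM, carried 40% of that cluster's counts, and without it the level was 18.99 CPM. Of the late clusters, HE-AGM late stood at 2.16 CPM of Notch4, HE-YSA late at 1.88 and HE-YSP late at 6.09, each from 1 to 3 cells. HE-Hb had 1.32 CPM, and p1 and p2 were at 0.

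Dll4, the arterial ligand, was nearly unmeasured. All of its 12 counts lay in 1 HE-AGM late cell, at 142 CPM. It was at 0 in the other 207 cells, which in HE-AGM early allows up to 1.55 CPM and in p1 up to 4.57 CPM.

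Jag1 and Jag2 encode the Jagged ligands, and they differed in the late aortic cells. Jag1 stood at 57.8 CPM (47.6 to 69.5) in HE-AGM early, with cells from 0 through 16.7 to 253 CPM. It was at 0 in all 20 HE-AGM late cells, which allows up to 2.16 CPM. Elsewhere it stayed between 0 and 5.96 CPM, where the HE-Hb value came from 1 cell.

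Among the ligands the highest share of cells was that of Jag1 in HE-YSP (4 cells of 49, against 2), and that of Jag2 in HE-AGM and HE-YSA. It stood at 79.4 CPM (67.4 to 93.0) in HE-AGM early, with cells from 0 through 52.3 to 287 CPM, and at 24.5 CPM (16.9 to 34.2) in HE-AGM late, where 9 of 20 cells held it. HE-YSA early, at 26.2 CPM (16.4 to 39.6), overlapped HE-AGM late, and held Jag2 in 5 of 23 cells. HE-YSA late had 8.45 CPM and 4.00 without its highest cell. In HE-YSP early and late the level was 2.35 and 3.65 CPM from 1 cell each, p1 had 1.52 CPM from 1 cell, and HE-Hb and p2 were at 0.

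Hey1, a HES-related repressor and Notch target, had overlapping levels in HE-YSA early and HE-AGM early and was unseen in HE-YSP. HE-YSA early had 153 CPM (128 to 182) with 11 of 23 cells holding it and a highest cell of 613 CPM, and HE-AGM early 141 CPM (125 to 159) with 21 of 29 cells, a median cell of 94.2 and a highest of 424 CPM. HE-AGM early over HE-YSA early stood at -0.12 on the log2 scale, but at -0.996, 2.37 and 0.08 in runs 1, 2 and 3, at 0.35 for protein-coding transcripts and at 0.17 with DESeq2 size factors, so its direction is not settled. The share of cells with Hey1 was smaller in HE-YSA early, with overlapping intervals (26.8% to 69.4%, against 52.8% to 87.3% in HE-AGM early). Cells that held Hey1 had a median of 204 CPM in HE-YSA early and 160 CPM in HE-AGM early. Median totals were 32130 and 55908 counts, and 1 count is a higher CPM in a cell of lower total, so these medians are not at equal depth. HE-AGM late had 51.1 CPM, of which 53.5% lay in 1 cell, and 26.1 CPM without it. HE-YSA late had 14.1 CPM and 7.65 without its highest cell, and HE-Hb 3.97 CPM. None of the 49 HE-YSP cells had a Hey1 count, which allows up to 1.79 CPM in HE-YSP, and p1 and p2 were at 0 as well.

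Hey2, the related repressor known from arteries, was held by few cells at high levels. In HE-AGM early 9 of 29 cells held it, with a highest cell of 360 CPM and a cluster level of 53.6 CPM (43.8 to 65.0), or 36.5 without that cell. In HE-YSA early 4 of 23 cells held it, at 30.9 CPM (20.2 to 45.3), or 17.8 without its highest cell, and these intervals overlapped. HE-YSA late had 4.70 CPM and HE-YSP early 3.53 CPM from 1 cell each, and the other 5 clusters were at 0. Of the 9 HE-AGM early cells with Hey2, 8 held Notch1, 8 held Jag1, 7 held Hey1 and 3 held Hes1, where all pairs share the depth of the cell.

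Hes1, a target with other inputs besides Notch, was seen in more clusters than Hey1 or Hey2, with counts in 8 of 9. It stood at 66.5 CPM (55.5 to 79.1) in HE-AGM early, with cells from 0 through 11.3 to 467 CPM, and at 39.3 CPM (27.03 to 55.1) in HE-YSA early. HE-YSA late had 17.8 CPM, HE-Hb 15.9 and HE-AGM late 14.4, with overlapping intervals and 3 to 6 cells each. Without the highest cell HE-Hb had 10.1 and HE-AGM late 8.69 CPM. HE-YSP early was at 0 in 25 cells, and HE-YSP late, p2 and p1 had 3.65, 2.73 and 1.52 CPM.

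The promoter of Hey2 is shown because RBPJ, the partner of cut Notch, binds sites with the letters GTGGGAA. The window holds the 250 bases before the annotated start on chr10:30842784-30843033, minus strand, of RefSeq GRCm38.p6, with the match in capitals on the opposite strand, beginning 207 bases before the start.
Hey2: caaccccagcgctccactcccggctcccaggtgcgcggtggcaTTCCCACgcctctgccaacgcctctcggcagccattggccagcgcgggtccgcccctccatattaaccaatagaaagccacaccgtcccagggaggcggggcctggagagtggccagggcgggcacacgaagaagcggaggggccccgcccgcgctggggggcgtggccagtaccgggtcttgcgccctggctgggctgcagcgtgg
RefSeq windows were found for 6 of the 8 genes, the exceptions being Hey1 and Hes1. GTGGGAA, searched on both strands, was in 5.42% of 32851 windows of this length and among the members in Hey2 alone, and its shorter core TGGGAA, which overlaps it, was in 21.6% of windows and again in Hey2 alone. CACGCG, a site of HES and HEY proteins, was in 7.62% of windows and in those of Dll4 and Jag1, and CACGTG in 6.02% and in no member.

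Between the populations, receptors and Jagged ligands were higher in HE-AGM than in HE-YSA when early and late cells were pooled. HE-AGM over HE-YSA was at least 2-fold for 4 of the 8 genes, where 31.8% of all 11956 genes with at least 20 summed counts were that much higher in HE-AGM. These were Jag1 (12.8-fold), Notch1 (11.7-fold), Jag2 (3.47-fold) and Notch4 (2.501-fold). Notch1 stood at 1.15, 3.00 and 5.20 on the log2 scale in runs 1, 2 and 3, so the size of its ratio is not settled. With all runs together the targets were closer, at 1.37-fold for Hey1, 1.64-fold for Hes1 and 1.92-fold for Hey2, and Dll4 had too few counts. Hey2 stood at 0.56, 4.90 and 0.35 on the log2 scale in runs 1, 2 and 3, with 0 HE-YSA counts in run 2. In the early clusters of run 2 Hey1, Hey2 and Hes1 stood at 2.37, 4.65 and 3.29, so the closeness did not hold in that run. The median log2 ratio over the 8 genes was 1.54 against 0.31 over all genes, and 1.25 with Dll4 at the bound that 3 counts in HE-YSA give. In the early clusters alone the median was 0.87 and 3 of the 8 genes were at least 2-fold higher, against 33.6% of all genes, a share near the background, with Notch4 at 1.99-fold. In the late clusters alone Jag1, Hey2 and Hes1 were lower in HE-AGM, at -1.97, -3.84 and -0.31 on the log2 scale, the first from 1 count and the second from 5. Hey1 was higher in HE-AGM there, at 1.82. In run 1, one of 3 nanopore runs, Notch4 stood at -0.95, and at -1.44 in the early clusters.

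HE-AGM over HE-YSP was at least 2-fold for 7 of the 8 genes, where 34.1% of all genes were that much higher in HE-AGM. Hey1 was 57.7-fold higher with HE-YSP at the floor of 3 counts over the population, and its counting interval began at 5.55 on the log2 scale. Jag2 was 18.9-fold higher (log2 interval 2.99 to 5.88), from 5 HE-YSP counts in 2 cells, and runs gave log2 values of 2.27 to 6.13. Jag1, with 6 HE-YSP counts, was 9.37-fold higher (2.06 to 4.71), Notch1 5.85-fold and Notch4 2.47-fold. For Notch1 runs 1, 2 and 3 gave log2 values of 1.18, 1.52 and 3.44. Hes1 and Hey2 had 3 counts each in HE-YSP, which gave 24.9-fold (log2 interval 3.07 to 6.93) and 17.4-fold (2.53 to 6.42). The median log2 ratio was 3.78 against 0.37 over all genes, and 3.51 with Hey1 and Dll4 at their bounds. In run 1 Notch4 stood at -0.25. In the late clusters alone 4 genes were at least 2-fold higher, and Notch4, Jag1 and Hey2 had log2 values of -1.41, -2.35 and -0.76 from at most 5 counts in a cluster.

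HE-YSA over HE-YSP was at least 2-fold for 4 of the 8 genes, where 11.5% of all genes were that much higher in HE-YSA and 9.47% that much lower. These were the 3 targets and Jag2: Hey1 42.1-fold with 0 read as 3 counts, Hes1 15.2-fold, Hey2 9.07-fold and Jag2 5.44-fold. For Hey1 the counting interval began at 5.08 on the log2 scale. The receptors did not separate the yolk sac populations, with log2 ratios of -0.96 for Notch1 (interval -2.46 to 0.36) and -0.02 for Notch4 (-0.87 to 0.84). Jag1 had 5 and 6 counts. In run 2 alone Hey2 had no counts in either population, and 2 genes were at least 2-fold higher. The arterial marker list, which holds none of the 8 genes, ran the same way between the early clusters, and its part in these ratios was not tested.

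**Figure D2:**
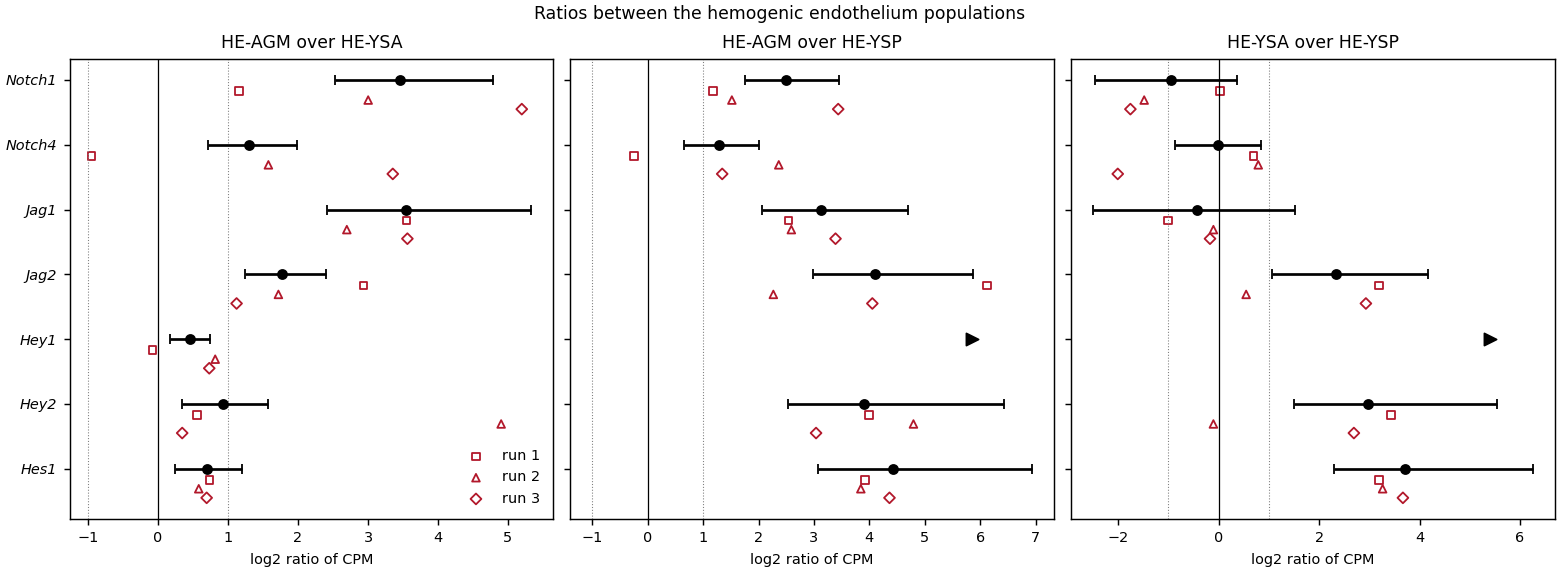
Log2 ratios of CPM for 7 genes between HE populations, with black points for all cells, bars for the 95% counting interval and open red marks for each of 3 nanopore runs; arrowheads are lower bounds and dotted lines mark 2-fold. Dll4 is left out for too few counts, and the Hey1 arrowhead lies at 5.40 on the log2 scale in HE-YSA over HE-YSP.

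From early to late HE most of the genes were lower. In HE-AGM 7 of the 8 genes were at least 2-fold lower in the late cluster, where 17.2% of all genes were and 9.11% were as much higher. Jag1 and Hey2, from 112 and 104 counts to 0, were 26.8-fold and 24.9-fold lower with 0 read as 3 counts. Their counting intervals reached -4.42 and -4.31 on the log2 scale. Notch4, with 3 counts in the late cluster, was 27.5-fold lower (log2 interval -7.08 to -3.20), and lower by 2.76 on the log2 scale after thinning to 16000 counts. Notch1 was 2.13-fold, Hey1 2.77-fold, Jag2 3.25-fold and Hes1 4.63-fold lower, and Notch1 was higher in the late cluster in run 2 alone (log2 0.51). Dll4 alone was higher, from the 1 cell above.

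In HE-YSA 5 of the 8 genes were at least 2-fold lower in the late cluster, against 11.7% of all genes, and the remaining 3 had under 20 counts. Hey1 was 10.9-fold lower (log2 -3.40, with -2.63 by DESeq2 size factors, -2.45 by mean TPM and -4.85 with the limit on totals set on a log scale), Hey2 6.59-fold, Jag2 3.10-fold and Hes1 2.20-fold, and Notch4, with 2 late counts, 15.8-fold lower (log2 interval -7.11 to -1.98). Hey1 (log2 1.47) and Hes1 (3.16) were higher in the late cluster in run 2 alone, and Hey2 (1.21) in run 1 alone. In HE-YSP Notch4 alone had 20 counts or more and was lower by 1.77 on the log2 scale, where 12.6% of all genes were at least 2-fold lower. The summed endothelial markers were 1506 CPM in HE-AGM early and 611 in HE-AGM late, 953 and 487 in the HE-YSA clusters, and 1063 and 434 in the HE-YSP clusters. Their part in these differences was not tested.

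HE-Hb is a label the sample descriptions do not explain. The titles of its cells number it after HE-AGM late, and the paper lists intra-aortic hematopoietic clusters after its AGM HE clusters. Early blood markers summed to 573 CPM in HE-Hb, the most of any cluster, and endothelial markers to 193 CPM. In HE-Hb and in the progenitor clusters few counts were left. HE-Hb over HE-AGM late was at least 2-fold lower for 3 of the 8 genes, where 15.3% of all genes were, and of the 4 with 20 counts or more none was 2-fold higher, where 9.89% of all genes were. The lower genes were Notch1, with 2 counts in HE-Hb, 22.3-fold (log2 interval -7.57 to -2.53), Hey1 12.8-fold and Jag2. Jag2 was 12.3-fold lower with 0 read as 3 counts, and its counting interval reached -3.24 on the log2 scale. Hes1, at 15.9 and 14.4 CPM, stood at 0.14 on the log2 scale, but at 4.77 in run 1, -4.56 in run 2 and -0.17 in run 3, and at 1.40 after thinning, so no direction is read from it. In p1 Hes1 and Jag2 had 1 count each and the other 6 genes 0. Hes1 alone passed 20 summed counts with HE-YSA late and was lower in p1 by 3.00 on the log2 scale, where 15.9% of all genes were at least 2-fold lower. p2 held 4 counts of Notch1 in 1 cell and 2 of Hes1, and no member reached 20 summed counts with HE-YSP late, where 12.1% of all genes were at least 2-fold lower and 8.17% higher.

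By age, values within HE-YSA were few. In HE-YSA early at E10.5, in 13 cells, Hey2 stood at 54.9 CPM and Hes1 at 52.8 CPM, and at E9.5, in 7 cells, both were at 0, which allows up to 10.7 CPM. An E9.5 cell under the limit on totals held 1 Hes1 count, and in HE-YSA late Hes1 stood at 29.4 CPM (10.8 to 63.9) at E9.5 and 16.1 CPM (8.59 to 27.6) at E10.5. All Hes1 counts of HE-YSA late at E9.5 came from 1 of 7 cells. Hey1 in HE-YSA early was at 122 CPM (84.2 to 170) at E9.5 and 169 CPM (134 to 210) at E10.5, with overlapping intervals. The highest cell of each age carried 73.5% of the Hey1 counts at E9.5 and 42.5% at E10.5. Without these cells the levels were 39.9 and 111 CPM, so likeness of the ages is not read from them. Levels of AGM cells are not given by age, since an age was taken from the labels for 1 of them.

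The share of cells holding a gene moved with depth. Before and after thinning to 16000 counts, Notch1 was held by 58.6% and 41.4% of HE-AGM early cells (exact binomial interval after thinning 23.5 to 61.1) and by 17.4% and 13.04% of HE-YSA early cells (2.78 to 33.6). Hey1 was held by 72.4% and 65.5% of HE-AGM early cells and by 47.8% and 39.1% of HE-YSA early cells, with overlapping intervals. Hes1 went from 51.7% to 27.6% in HE-AGM early and from 30.4% to 26.1% in HE-YSA early, so that at equal depth the shares lay close together. In HE-YSP early Hey1 and Hes1 were held by 0 of 25 cells at either depth.

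**Figure D3:**
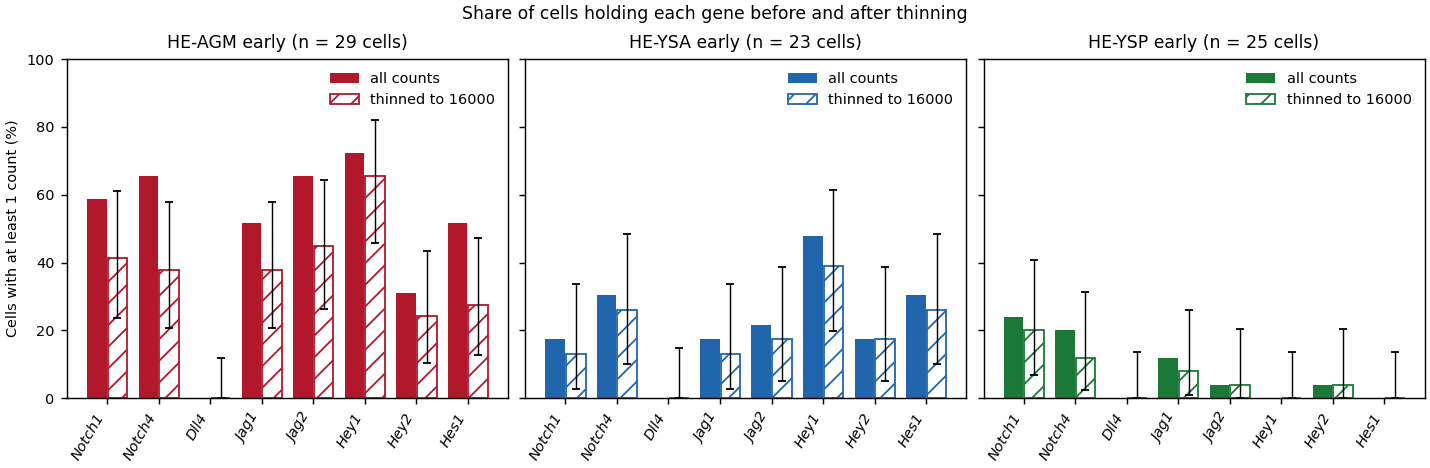
Percent of cells with at least 1 count of each gene in the 3 early HE clusters, with filled bars for all counts, hatched bars for cells thinned to 16000 counts and black lines for the 95% exact binomial interval of the hatched bars. Hes1 drops from 51.7% to 27.6% in HE-AGM early, and Hey1 is at 0 in HE-YSP early.

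Long reads assigned most counts of each gene to 1 transcript, from 81.9% for Notch4 to 100% for Hey2. The paper calls the coverage of its nanopore data lower than that of its short reads and not enough for a robust analysis of isoforms. A sequence difference is shown for Hey1, which had the most counts. Its second transcript, Hey1-203 of 1056 bases, keeps the third intron of the coding transcript Hey1-201 of 2423 bases. That intron lies between coding exons 3 and 4 on chromosome 3, minus strand, at chr3:8666027-8666271 of GRCm38 in the GENCODE M21 annotation, where the deposited table uses a later release with the same transcript lengths. Hey1-203 also differs at its ends, with a first exon of 203 bases against 475 and a last exon of 366 against 1706. The sequences are shown because the intron is 1 difference between the transcripts. They hold 20 bases of exon on either side of the 245 intron bases in capitals for Hey1-203, and exon 4 in capitals for Hey1-201.
Hey1-203: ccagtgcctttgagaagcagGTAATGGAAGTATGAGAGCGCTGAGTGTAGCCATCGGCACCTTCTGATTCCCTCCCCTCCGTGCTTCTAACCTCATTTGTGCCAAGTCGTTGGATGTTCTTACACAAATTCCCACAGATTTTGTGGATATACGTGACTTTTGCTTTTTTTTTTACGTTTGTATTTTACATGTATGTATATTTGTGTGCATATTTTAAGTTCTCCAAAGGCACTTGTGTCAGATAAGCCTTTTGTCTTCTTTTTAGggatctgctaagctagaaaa
Hey1-201: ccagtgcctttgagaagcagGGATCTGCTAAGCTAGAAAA

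Hey1-203 took 39 of 144 Hey1 counts in HE-YSA, or 27.1% (95% exact binomial interval 20.02 to 35.1), and 7.50 of 345 in HE-AGM, or 2.17% (1.01 to 4.52). It was held by 10 of the 17 HE-YSA cells with Hey1 and by 3 of the 30 HE-AGM cells with Hey1. A HE-YSA early cell of run 1 with 21 of its 31 Hey1 counts on Hey1-203 raised the share, which was 15.9% in HE-YSA without it. The HE-YSA early cell of the AGM cDNA project held 3 Hey1-203 counts, and a HE-YSA early cell with AGM in its library name held 1. In runs 1, 2 and 3 HE-YSA shares were 40.8%, 11.8% and 14.3% and HE-AGM shares 1.47%, 0% and 3.08%, with intervals that overlapped in runs 2 and 3. The counts are estimates that divide reads compatible with both transcripts, and the shares rest on few cells. They are shares of whole transcripts, and reads across the intron itself were not counted. Notch4-201, the full-length receptor transcript, took 89.0% of 118 Notch4 counts for HE-AGM, 70.4% of 27 for HE-YSA and 58.3% of 24 for HE-YSP (36.6 to 77.9). In runs 1, 2 and 3 its share was 0%, 100% and 91.7% in HE-YSP and 72.2%, 100% and 0% in HE-YSA, and the 6 HE-YSP counts of the short transcript Notch4-203 lay in 1 cell, so no order between the populations is read from these shares.

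**Figure D4:**
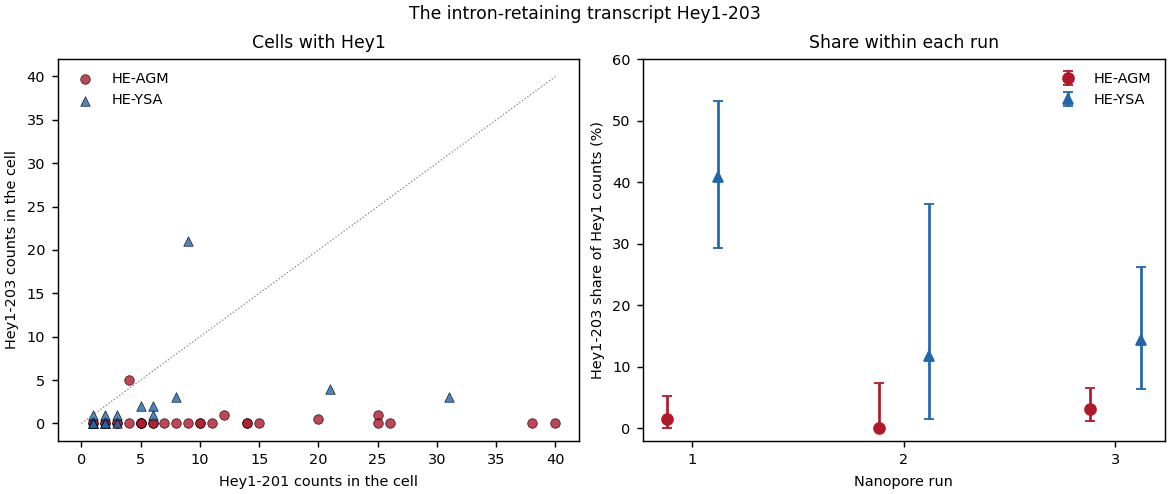
On the left, counts of the intron-retaining transcript Hey1-203 against those of the coding transcript Hey1-201 in each HE-AGM (circles) and HE-YSA (triangles) cell with Hey1, with equality dotted; on the right, the Hey1-203 share of Hey1 counts within each nanopore run with 95% exact binomial intervals. The HE-YSA share was above the HE-AGM share in each run, with overlapping intervals in runs 2 and 3. In run 1 it was 40.8% against 1.47%, where 1 cell held 21 of the 29 Hey1-203 counts of HE-YSA.

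Across the 9 clusters, Hey1 and Hes1 ran most alike among the members (Pearson r of 0.90 on log2(CPM + 1)), followed by Jag2 with Hey1 (0.86) and Notch4 with Hey2 (0.84). Among 3260 other genes with at least 500 counts, Notch1 was most like Tie1, an endothelial receptor kinase (0.95), then Cd276. Notch4 was most like Map4k4, Capn2 and Aplp2, Jag1 like Map3k11, Gm28437 and Tpt1, and Jag2 like Rcn1, Col18a1 and Tnfaip2. Hey1 was most like Ctsh (0.97), Mfap2 and Mdk, and Hes1 like Slc6a6, Mdk and Gata2, the last a transcription factor of blood and endothelium. Hey2 was most like Mfge8, Gja5 and Gja4 (0.91, 0.90 and 0.89), where the last pair are arterial connexins. Dll4, from 1 cell, was most like Ube2d-ps, Cenpf and ENSMUSG00000124988. All correlations rest on 9 values that share libraries and depth.

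The other 44 genes of the pathway list, from ligand processing to nuclear partners, were more often higher than lower in HE-AGM. In HE-AGM over HE-YSA 15 were at least 2-fold higher (51.7%) and 2 lower (6.90%), of 29 with 20 counts or more. Of all genes 31.8% were higher and 13.3% lower, and of the members with 20 counts or more 57.1% were higher. In HE-AGM over HE-YSP 15 were again higher (51.7%) and 2 lower (6.90%) of 29, where 34.1% and 14.5% of all genes were. In HE-YSA over HE-YSP 4 were higher and 1 lower of 25, near the 11.5% and 9.47% of all genes. Of the receptors, Notch2 stood at 15.6 CPM for HE-AGM and 1.05 for HE-YSA, Notch3 at 13.5 and 1.05, and both were at 0 in HE-YSP, but p1 had 25.9 CPM of Notch2. Nrarp, a Notch target that dampens the pathway, stood at 56.8 CPM for HE-AGM, 8.40 for HE-YSA and 4.19 for HE-YSP. Of the proteases, Adam10, which makes the first cut after ligand binding, stood at 208, 72.4 and 60.4 CPM in the same order, and Furin, which trims the receptor on its way to the surface, at 61.8, 12.6 and 6.58.

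Rbpj, the nuclear partner, stood at 47.2, 19.9 and 6.58 CPM, and was higher in HE-AGM late (79.1) than early (24.2). Numb, an inhibitor of Notch, ran the other way, at 21.3 CPM for HE-AGM, 70.3 for HE-YSA and 62.2 for HE-YSP. Hes6, which is known to counter HES1, stood at 34.6 CPM in HE-AGM early and 141 in HE-Hb, and at 181 in p1. Dlk1, a ligand-like protein without the usual receptor-binding domain, stood at 172 CPM in HE-Hb and at 0 in HE-AGM late. Heyl, Hes7 and Dll3 had no count in HE cells, Dll1 stood at 3.59 CPM in HE-YSP and at 0 in the other populations, and Hes5 stood at 0.60 CPM in HE-AGM and at 0 in the other populations.

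**Figure D5:**
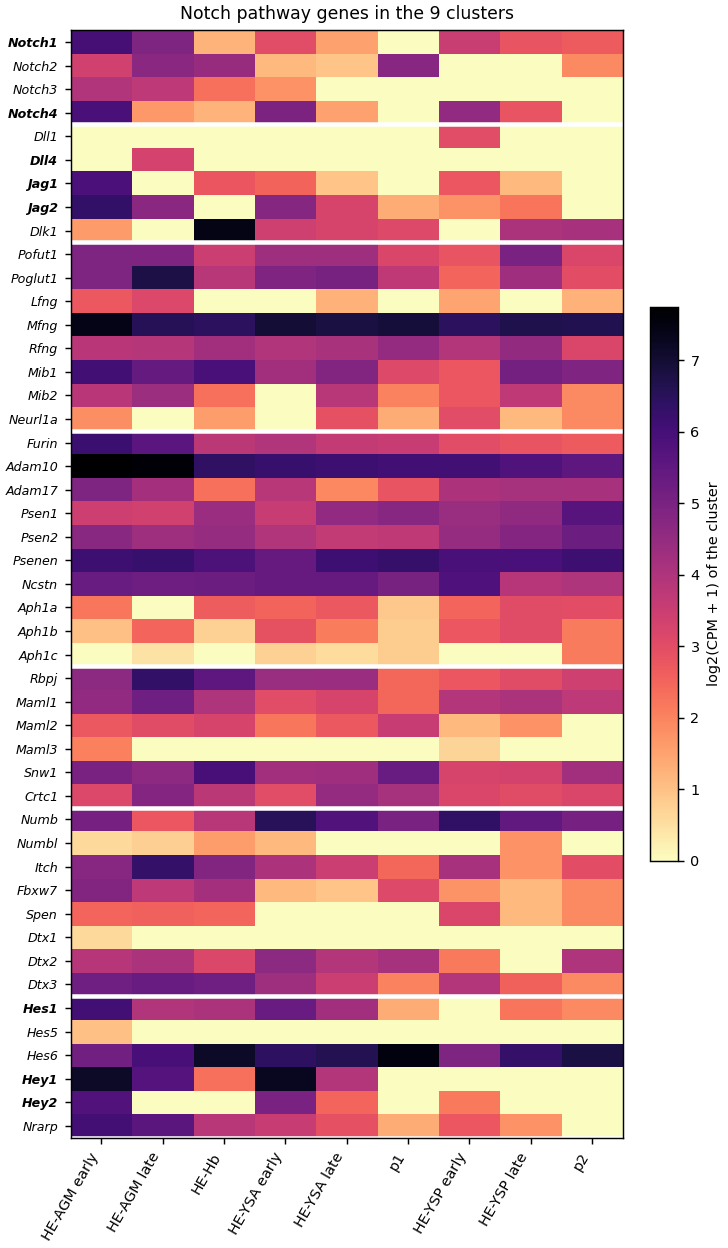
Colour gives log2(CPM + 1) of each pathway gene (rows, the 8 genes in bold, genes without counts left out) in each of the 9 clusters (columns), with white lines between receptors, ligands, ligand and receptor modifiers, proteases, nuclear partners, inhibitors and targets. Notch1, Notch4, Jag1, Jag2, Hey1 and Hey2 are darkest in HE-AGM early, or for Hey1 in HE-YSA early, and Hes6 is darkest in p1 and Dlk1 in HE-Hb.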

How the data were processed

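The authors sequenced 221 single-cell cDNA libraries in 3 nanopore runs. Per the methods they aligned reads with minimap2 2.26 to GENCODE transcripts and estimated abundance with NanoCount. They deposited a table of estimated counts per transcript and a table of TPM, the latter a share of transcript abundance in each cell. The R 4.3.0 and DESeq2 1.40.2 of the submitters' processing notes do not enter these tables. Here counts were summed per gene symbol. Cells under 17595 counts, which is the median minus 1 scaled median absolute deviation, were left out. Counts of a cluster were summed and divided by its total, and 0.5 counts were added to each sum for log2 ratios. Genes with 20 summed counts or more served as background, and 2-fold as the limit. A count of 0 was read as up to 3 counts. Thinning drew 16000 rounded counts from each cell. The scripts were tested on simulated data. Python 3.11.15 was used with pandas 2.3.3, numpy 2.4.6, scipy 1.17.1 and matplotlib 3.10.9, and DESeq2 1.42.0 under R 4.3.3 gave size factors for an alternative. The 8 genes and the lists were chosen with earlier results of these data known. The 8 genes were all described; other pathway genes were named with at least 50 counts and a 2-fold difference, or as receptors, ligands and HES, HEY or NRARP targets, and the 3 genes most alike to each member were named, except for 1 gene that is not reported here. Every cell and cluster was taken from the labels, and no column went unused for lack of a sample.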

Additional observations from a re-analysis of the deposited data

Results flagged for a closer look

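Hey1 had 13 counts in the 13 cells that fell under the library-size limit and entered no comparison. They lay in 2 HE-YSA early cells, with 6 counts in a cell of 13295 and 7 in a cell of 17493 counts, and Hes1 had 1 count in the second of these. The other 6 genes were at 0 in all 13 cells, whose totals sum to 98222 counts. The value was singled out because it is above the 3 counts that a count of 0 allows and lies outside the data compared above.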

How the results depend on the processing

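Across 1046 results of alternative settings, medians over the 8 genes stayed within the standard deviation of the 3 run medians in 54 cases, moved in 26 and reversed in 3. Counts of the 8 genes past 2-fold stayed at or near the main count in 67 cases and moved in 3. Ratios of single genes stayed within their counting interval in 676, moved in 82 and, among those of at least 2-fold, reversed in 12. Transcript shares stayed in 25 and moved in 26, shares of cells stayed in 43 and moved in 5, and shares of all genes past 2-fold stayed in 8 and moved in 16. The last depend on the limit of 20 counts: in HE-YSA over HE-YSP 21.01% of genes were higher with at least 3 and 4.51% with at least 100 summed counts. The cause was not tested, except that single runs and early or late clusters hold fewer cells by construction. The cell highest in each gene left out, and early or late clusters alone, were chosen after seeing the data. The median log2 ratio of HE-AGM over HE-YSA (1.54) was 0.94 in run 1, 0.93 in run 3, 0.87 in early and 0.79 in late clusters. That of HE-AGM over HE-YSP (3.78) was 2.48 in run 2, 2.92 with 3 counts added, 3.00 with YS cells of E10.5 and 1.97 in late clusters, where 4 genes instead of 7 were at least 2-fold higher. HE-YSA over HE-YSP (1.15) gave 0.22 in run 2, with 2 genes instead of 4. HE-Hb over HE-AGM late (-2.09) gave -2.64 after thinning, -0.086, -0.88 and -0.35 in runs 1, 2 and 3, -1.41 with 3 counts added and -0.18 without the highest cell. p1 over HE-YSA late (-1.79) gave -1.24 with DESeq2 size factors, -1.18 after thinning, -0.018, 0.98 and 0.21 in runs 1, 2 and 3, -0.38 with 3 counts added and 0.63 without the highest cell, and 0 genes instead of 1 were lower in run 3. p2 over HE-YSP late (-0.22) gave -0.47 with mean TPM, -0.53 after thinning, -0.0031, 0.29 and 0.24 in runs 1, 2 and 3, -0.063 with 3 counts added and 0.10 without the highest cell. The medians of p1 and p2 rest on genes with few or no counts. Genes with 0 counts in both groups enter all these medians, where their value is the ratio of the totals alone. The -0.086 of HE-Hb in run 1 is such a value, shared by Notch1, Notch4, Jag1 and Hey2. With such genes left out and genes at 0 in 1 group at their bound, the median was -2.85 in HE-Hb over HE-AGM late. It was 2.33 in HE-YSA over HE-YSP.

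In run 1 Notch4 turned to -0.95 in HE-AGM over HE-YSA, -0.25 in HE-AGM over HE-YSP -0.48 in HE-AGM early over HE-YSP early and -1.44 in HE-AGM early over HE-YSA early, and Hey2 to 1.21 in HE-YSA late over early. In run 2 Hey2 gave -0.11 in HE-YSA over HE-YSP with no counts, Notch1 0.51 in HE-AGM late over early, and Hey1 1.47 and Hes1 3.16 in HE-YSA late over early. In late clusters Jag1 was -1.97, Hey2 -3.84 and Hes1 -0.31 in HE-AGM over HE-YSA, and Notch4 -1.41, Jag1 -2.35 and Hey2 -0.76 in HE-AGM over HE-YSP. With DESeq2 size factors the median of all genes moved from 0.31 to 0.54 in HE-AGM over HE-YSA and from 0.37 to 0.62 in HE-AGM over HE-YSP, and the share of 2-fold differences that were higher in HE-AGM from 70.5% to 80.2% and from 70.1% to 78.6%. The 7 genes with 20 counts or more stayed above that median in both. No paired analysis was possible because the results come from no test and replicate numbers only name cells.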

Other observations

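The HE-YSA early cell of the AGM cDNA project held 116 CPM of Notch1, 154 of Notch4, 424 of Hey1 and 154 of Hes1. Of the 2 YS cells with AGM in their library name, a HE-YSA early cell held 53.0 CPM of Hey1 and 106 of Hes1, and a HE-YSA late cell held none of the 8 genes. Hbb-y, an embryonic globin, stood at 119 CPM in HE-AGM early, from 6 of 29 cells and 14.3 without the highest of them, and at or below 35.7 CPM in the other clusters. Mesenchyme markers summed to at most 6.19 CPM in a cluster.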
